A study of Mus musculus with 66 samples.

Results

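The 10 genes described here encode the enzymes that make citrulline and arginine and turn arginine into ornithine and polyamines: Cps1, Otc, Ass1, Asl, Arg2, Oat, Odc1, Srm, Sms and Sat1. They were taken from the RNA table by gene symbol. Of the 10, 7 had a row, each with 1 transcript, among 9481 transcripts of 8978 symbols, and Odc1, Sms and Sat1 are described here from their chromatin alone. Mouse small intestinal organoids, which carry a GFP and diphtheria toxin receptor insert at the Lgr5 locus, were grown in 3 media. ENR contained R-Spondin-1 and Noggin as 5% and 10% conditioned medium and EGF at 50 ng/mL. CV was ENR with 3 µM CHIR99021, an inhibitor of the kinase GSK3, and 1 mM valproic acid, an inhibitor of histone deacetylases, and was used to enrich for stem cells. EN was ENR without R-Spondin and was used to enrich for enterocytes. CV thus differs from ENR by both compounds at once, which cannot be told apart. EN differs from CV by R-Spondin and both compounds, and CV was also grown for more days than EN. These cannot be told apart either, and all 3 cultures are mixtures of cells.

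Carbamoyl phosphate synthetase (Cps1) and ornithine transcarbamylase (Otc) make citrulline in mitochondria, argininosuccinate synthase (Ass1) and lyase (Asl) turn citrulline into arginine, and arginase 2 (Arg2) splits arginine into ornithine and urea. Ornithine aminotransferase (Oat) links ornithine with proline and glutamate, and ornithine decarboxylase (Odc1) commits ornithine to the polyamines, which the spermidine and spermine synthases (Srm, Sms) extend and the acetyltransferase Sat1 marks for export or breakdown. In the adult small intestine, enterocytes release citrulline for arginine synthesis in the kidney, and polyamines are known for their part in the proliferation of crypt cells.

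RNA was sequenced in 4 libraries per culture with 5630977 to 8859757 counts each outside the spike-ins, which took 0.837% to 1.36% of the counts. Chromatin was measured as ATAC-seq in 4 libraries per culture and as H3K27ac, H3K4me3 and H3K27me3 in 3 libraries per culture. Hnf4g binding was measured in 1 library per culture. The labels do not say that libraries came from separate cultures, so p-values measure the spread between these libraries, which may be technical. Of 5 stem cell markers, all were lower in EN than in CV and in ENR, with summed levels of 16.6 to 18.4 TPM (transcripts per 1000000 transcripts, which accounts for their length) in EN, 236 to 274 in CV and 912 to 996 in ENR. In RNA, these markers were not higher in CV than in ENR. By edgeR 4 of 5 were called lower in CV, beside 29.8% of all transcripts. Lgr5 was at 31.3 ± 1.51 TPM in CV and 40.2 ± 1.52 in ENR (SD, n = 4). Olfm4, which made up most of the ENR sum, was at 7.04 ± 4.21 and 708 ± 36.8. Smoc2 (181 and 187 TPM, 1.15-fold) and Axin2 (28.0 and 29.2 TPM, 1.17-fold) differed little between CV and ENR, with values that overlapped. All 7 enterocyte markers were higher in EN, where they summed to 39246 to 46183 TPM against 17289 to 18412 in CV and 7984 to 9242 in ENR. Most of each sum was Fabp1, at means of 33035, 16366 and 6740 TPM in EN, CV and ENR. Between CV and ENR the 7 were split, with 3 higher in CV, 3 lower and 1 not called. Goblet cell markers summed to 6201 to 7418 TPM in EN, 1671 to 1792 in CV and 2807 to 3020 in ENR, and Paneth cell markers to 5174 to 5620, 5797 to 6512 and 14639 to 16063. The Paneth sum joins markers that differed in opposite directions between EN and CV. Defa6 (1.89-fold) and Defa24 (2.25-fold) were higher in EN, and Lyz1 (2.35-fold) and Mmp7 (6.90-fold) lower, while all 4 were lower in EN than in ENR. Enteroendocrine markers were at 1333 to 1601 TPM in EN, 33.5 to 54.6 in CV and 507 to 526 in ENR, and tuft cell markers at medians of 20.2, 0.830 and 10.6. The 3 non-epithelial markers with a row were at 16.3 to 20.7 TPM in EN, 2.75 to 3.54 in CV and 6.45 to 7.72 in ENR, nearly all of it Vim, with Ptprc at a mean of 0.667 in EN and 0.0103 in CV. The part of these cell types in the results that follow was not tested. In bulk libraries, fewer cells of a type and less RNA per cell cannot be told apart.

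Promoter sequence is shown for the genes with an entry whose promoter accessibility and RNA both differed between cultures, so that the base composition of these promoters can be seen. The promoters of Otc, Ass1 and Oat are from RefSeq (GRCm38.p6), which matched 6 of the 10 genes, and run from 250 bases before to 50 after the start. They were placed on mm9 by exact match, at chrX:9829181-9829480 on the plus strand, chr2:31325540-31325839 on the plus strand and chr7:139768032-139768331 on the minus strand. Cps1, Asl, Arg2 and Srm had no entry. The Otc promoter was 44.3% G and C with 1 CpG, the Oat promoter 61.7% with 22 and the Ass1 promoter 74.0% with 27, against medians of 52.7% and 7 over all 32851 promoters. Capitals mark matches on either strand to the E-box CACGTG, the GC box GGGCGG, the CCAAT box or the CDX site TTTATG.
Otc promoter: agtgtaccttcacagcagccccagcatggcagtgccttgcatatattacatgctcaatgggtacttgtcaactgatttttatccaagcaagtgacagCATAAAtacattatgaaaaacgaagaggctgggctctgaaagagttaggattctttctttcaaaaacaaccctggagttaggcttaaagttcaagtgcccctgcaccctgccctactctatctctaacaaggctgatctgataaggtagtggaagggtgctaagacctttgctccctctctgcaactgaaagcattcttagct
Ass1 promoter: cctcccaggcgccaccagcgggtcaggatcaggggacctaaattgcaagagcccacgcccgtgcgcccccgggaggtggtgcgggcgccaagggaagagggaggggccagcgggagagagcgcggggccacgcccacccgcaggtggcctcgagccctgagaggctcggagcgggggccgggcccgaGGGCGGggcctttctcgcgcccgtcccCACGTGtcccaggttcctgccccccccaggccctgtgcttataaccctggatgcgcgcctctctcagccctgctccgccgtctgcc
Oat promoter: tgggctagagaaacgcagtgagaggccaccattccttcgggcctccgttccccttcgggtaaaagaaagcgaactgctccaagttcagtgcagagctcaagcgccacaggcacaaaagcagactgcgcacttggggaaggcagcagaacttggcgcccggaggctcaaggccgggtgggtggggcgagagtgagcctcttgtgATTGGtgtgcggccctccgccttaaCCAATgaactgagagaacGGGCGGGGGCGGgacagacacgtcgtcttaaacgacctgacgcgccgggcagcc

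The Ass1 window held an E-box 36 bases and a GC box 63 bases before the start, and the Oat window held CCAAT 47 and 22 bases before the start and GC boxes 4 bases before and 3 after it. The Otc window held a CDX site on the minus strand 153 bases before the start. CACGTG occurred in 7.15% of all promoters, GGGCGG in 35.7%, CCAAT in 37.4% and TTTATG in 11.9%, so none of the 4 was rare. TATAAA and the HNF4 sites CAAAGTCCA and CAAAGGTCA, which were searched as well, were not in these 3 windows, and no match says only that these letters are not there.

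In RNA, EN had far more Arg2, more Otc and Oat, and less Cps1, Ass1, Asl and Srm than CV. Expected counts were compared with edgeR's quasi-likelihood test, and a transcript was called at an adjusted p under 0.01. Between EN and CV all 7 genes were called, 3 higher and 4 lower, in a comparison in which 76.4% of 9288 transcripts were called, 35.2% higher and 41.2% lower. Between EN and ENR 6 were called, 3 higher and 3 lower, against 72.7% of all transcripts (35.5% higher, 37.2% lower). Between CV and ENR all 7 were called, 4 higher and 3 lower, against 59.9% (30.2% higher, 29.8% lower). With 7 genes, and with most transcripts called, these counts say little about the genes as a set. The sizes and directions of the single genes are given below. The median log2 difference over the 7 genes was −0.29 for EN against CV, 0.01 for EN against ENR and 0.30 for CV against ENR, beside −0.08, −0.01 and −0.01 over all transcripts. The 3 comparisons share their libraries in pairs. Of all calls between EN and CV 46.0% were higher in EN, against 31.3% on log2(TPM + 1), 25.6% with scaling to the spike-ins and 79.0% on the deposited mRNA copy numbers, and these scalings moved the median of all transcripts to −0.34, −0.49 and 0.72. Arg2, Otc and Oat were higher and Cps1, Ass1 and Srm lower in EN than in CV under each of them, and the differences that turned are given with each gene.

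**Figure D1:**
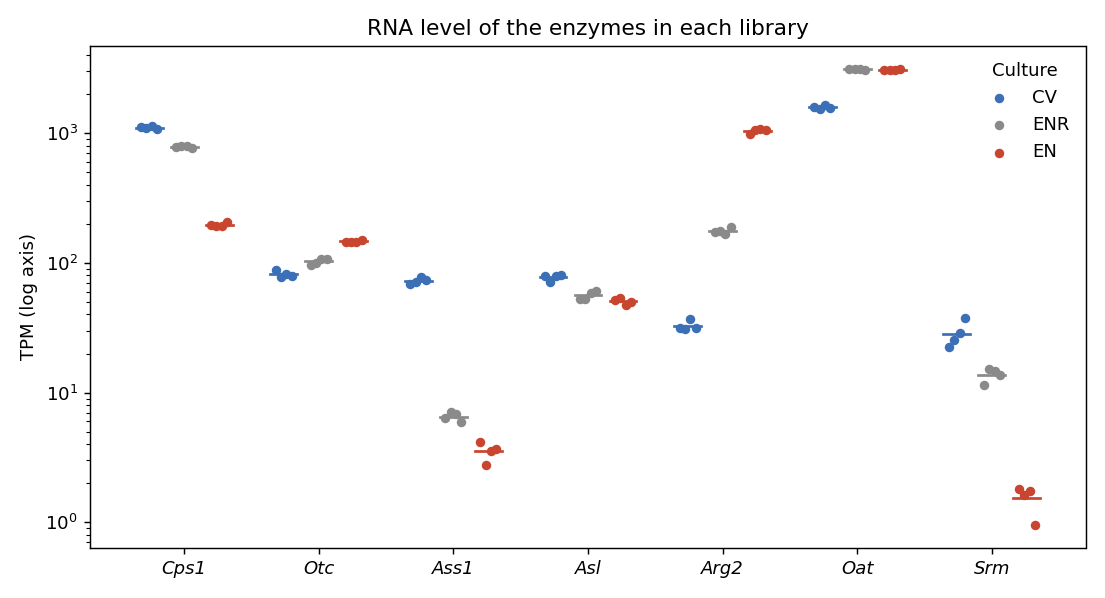
Level of the 7 genes with an RNA row in each of the 12 libraries, in TPM on a log axis, with the 4 libraries of CV, ENR and EN as points and the culture mean as a bar. Arg2 lies at 30.9 to 36.8 TPM in CV and at 979 to 1083 in EN, and Srm at 22.3 to 37.3 and at 0.957 to 1.80.

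Cps1, whose product feeds ammonia into citrulline synthesis, was highest in CV at 1107, 1093, 1128 and 1082 TPM. It was 774, 800.2, 791 and 769 TPM in ENR and 195, 193, 192 and 207 in EN. The 3 cultures did not overlap, and EN lay farthest from the others. By edgeR Cps1 was 4.49-fold lower in EN than in CV (log2 difference −2.17 ± 0.0352 (SE), adjusted p = 8.33e-17) and 3.56-fold lower than in ENR (−1.83 ± 0.0349, adjusted p = 8.29e-16). CV was 1.26-fold above ENR (0.34 ± 0.0334, edgeR adjusted p = 3.56e-07), a call that was lost with scaling to the spike-ins, where the difference was 0.23. Cps1 lies at chr1:67169600-67277833 on the plus strand of mm9.

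Otc, which joins carbamoyl phosphate to ornithine to give citrulline, ran the other way from Cps1. It was 87.9, 77.8, 82.1 and 79.0 TPM in CV, 97.0, 98.9, 107 and 107 in ENR, and 144, 145, 144 and 151 in EN. Again no libraries of different cultures overlapped, and the order was CV, ENR, EN from low to high. Otc was 2.23-fold higher in EN than in CV (log2 difference 1.16 ± 0.0465, edgeR adjusted p = 2.54e-12) and 1.40-fold lower in CV than in ENR (−0.48 ± 0.0469, adjusted p = 2.70e-07), the latter not called on the copy numbers (−0.37, limma adjusted p = 0.287). The difference between EN and ENR was 1.59-fold (0.67 ± 0.0456, edgeR adjusted p = 1.79e-09), but 0.16 with an adjusted p of 0.426 when edgeR was scaled to the spike-ins. Otc lies at chrX:9829431-9898150 on the plus strand.

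Ass1, which joins citrulline to aspartate, was 68.1, 71.8, 77.7 and 74.1 TPM in CV and 6.33, 7.03, 6.83 and 5.90 in ENR. In EN it was 4.16, 2.75, 3.54 and 3.65 TPM, from 35, 15, 23 and 29 counts. CV stood apart from both other cultures by about an order of magnitude, and EN and ENR did not overlap. Ass1 was 16.2-fold lower in EN than in CV (−4.02 ± 0.0957, edgeR adjusted p = 5.29e-15) and 10.1-fold higher in CV than in ENR (3.33 ± 0.0862, adjusted p = 1.26e-13). The difference between EN and ENR was smaller, 1.61-fold lower in EN (−0.69 ± 0.125, edgeR adjusted p = 0.000142), and on the deposited mRNA copy numbers it turned to 0.36, where the median of all transcripts was 1.07. Ass1 lies at chr2:31325727-31376192 on the plus strand.

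Asl, the lyase that releases arginine, moved least. It was 79.5, 70.8, 78.5 and 80.7 TPM in CV, 53.0, 53.0, 58.9 and 60.4 in ENR, and 52.0, 53.9, 47.1 and 49.6 in EN. CV lay above the others, and EN overlapped ENR. Asl was 1.23-fold lower in EN than in CV (−0.29 ± 0.0620, edgeR adjusted p = 0.000450) and 1.23-fold higher in CV than in ENR (0.30 ± 0.0611, adjusted p = 0.000448), the latter not called with scaling to the spike-ins (0.21, adjusted p = 0.368). Between EN and ENR the log2 difference was 0.01 ± 0.0635 (edgeR adjusted p = 0.908), but its sign and call depended on the scaling, from −0.50 with the spike-ins to 1.05 on the copy numbers, where limma called it (adjusted p = 0.000906) and the median of all transcripts was 1.07. On the copy numbers EN against CV turned to 0.52, below the median of all transcripts of 0.72. Asl lies at chr5:130487128-130501002 on the minus strand.

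Arg2, the mitochondrial arginase, had the largest difference of the 7 genes between EN and CV. It was 31.2, 30.9, 36.8 and 31.2 TPM in CV, 172, 175, 167 and 189 in ENR, and 979, 1049, 1083 and 1063 in EN. The gaps between the cultures were many times the spread within them. Arg2 was 40.1-fold higher in EN than in CV (5.33 ± 0.0663, edgeR adjusted p = 7.31e-18), 6.66-fold higher in EN than in ENR (2.74 ± 0.0544, adjusted p = 1.15e-15) and 6.03-fold lower in CV than in ENR (−2.59 ± 0.0683, adjusted p = 1.48e-13). It lies at chr12:80231764-80257288 on the plus strand.

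Oat, which interconverts ornithine and glutamate semialdehyde, had the highest level of the 7 in every culture. It was 1592, 1539, 1631 and 1546 TPM in CV, 3098, 3129, 3106 and 3062 in ENR, and 3047, 3063, 3056 and 3127 in EN. CV lay apart, and ENR and EN overlapped. Oat was 2.43-fold higher in EN than in CV (1.28 ± 0.0309, edgeR adjusted p = 5.99e-15) and 2.19-fold lower in CV than in ENR (−1.13 ± 0.0308, adjusted p = 2.12e-13). Between EN and ENR it was 1.11-fold higher by counts (0.15 ± 0.0303, edgeR adjusted p = 0.000302), but the sign turned to −0.01 on log2(TPM + 1) and to −0.37 with scaling to the spike-ins. Oat lies at chr7:139749158-139768081 on the minus strand.

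Srm, the spermidine synthase, was 22.3, 25.6, 28.8 and 37.3 TPM in CV and 11.5, 15.2, 14.7 and 13.7 in ENR. In EN it was 1.80, 1.61, 1.75 and 0.957 TPM, from 12, 7, 9 and 6 counts against 73 to 88 in ENR and 121 to 222 in CV. The cultures did not overlap, but these are the smallest counts among the 7 genes. Srm was 14.9-fold lower in EN than in CV (−3.89 ± 0.216, edgeR adjusted p = 1.31e-10), 7.95-fold lower than in ENR (−2.99 ± 0.229, adjusted p = 7.71e-09), and 1.87-fold higher in CV than in ENR (0.90 ± 0.156, adjusted p = 0.000108). It lies at chr4:147965612-147969102 on the plus strand.

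Ranked by TPM, a scale per transcript length, CV had Oat and Cps1 on top, followed by Otc, Asl and Ass1, whose neighbouring values overlapped, and by Arg2 and Srm, which overlapped as well. In ENR the order was Oat, Cps1, Arg2, Otc, Asl, Srm and Ass1, and in EN it was Oat, Arg2, Cps1, Otc, Asl, Ass1 and Srm, with no overlap between neighbours in either culture. By mean level Arg2 was sixth in CV and second in EN, above Cps1. Transcripts were also compared with each gene by the root mean square difference of log2 CPM (counts per 1000000 counts) over the 12 libraries, after the mean of each was subtracted, among 8562 transcripts. Most like Arg2 were Cd36, a fatty acid transporter (0.154, with mean levels of 7.78, 42.5 and 286 TPM in CV, ENR and EN), and Adh4, an alcohol dehydrogenase (0.163, with 33.3, 148 and 891 TPM). Cps1 was closest to Fastkd2 (0.065) and Nsun2 (0.067), Otc to Golph3l (0.069) and Trafd1 (0.071), and Asl to Sbno1 (0.065) and Dcbld1 (0.069). Oat was closest to Ptpmt1 (0.080) and Vrk3 (0.093), Ass1 to Tppp and Hk1 (both 0.251), and Srm to Tmem9 (0.217) and Cnn3 (0.254).

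**Figure D2:**
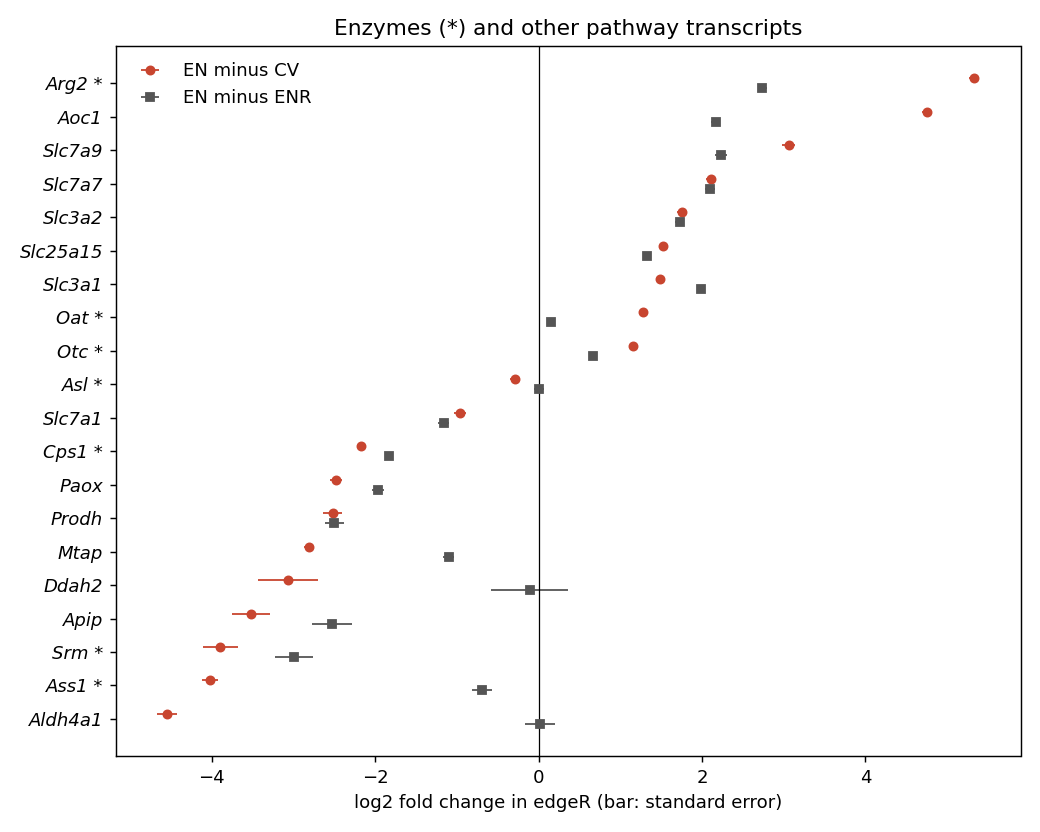
Log2 fold changes from edgeR between EN and CV (circles) and between EN and ENR (squares) for the 7 enzymes, marked with an asterisk, and for other pathway genes named in the text, with standard errors as bars and a line at 0. Arg2 at 5.33 and Aoc1 at 4.75 stand highest for EN against CV, Aldh4a1 at −4.55 and Ass1 at −4.02 lowest, and Asl lies at −0.29.

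Around these enzymes, 48 transcripts of other genes of the pathway were tested. Between EN and CV 14 were higher, 27 lower and 7 not called, with a median log2 difference of −0.46 beside −0.08 over all transcripts, of which 35.2% were called higher and 41.2% lower. Between EN and ENR 11 were higher, 18 lower and 19 not called (median −0.11), beside 35.5% higher and 37.2% lower over all transcripts. Between CV and ENR 22 were higher, 10 lower and 16 not called (median 0.14), beside 30.2% and 29.8%. The counts of the lists that follow are to be read against the same shares.

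Of 18 transcripts for the supply of citrulline and proline, 6 were higher and 10 lower in EN than in CV, with a median of −0.59. Slc25a15, the mitochondrial ornithine carrier, was at a mean of 259 TPM in EN against 112 in CV (1.53 ± 0.0364, edgeR adjusted p = 5.38e-15). Aldh4a1, which oxidises glutamate semialdehyde, was lower in EN than in CV, at 0.851 TPM against 25.0 (−4.55 ± 0.123, edgeR adjusted p = 2.29e-14). ENR was at 0.959 TPM, close to EN (EN against ENR 0.02 ± 0.186, edgeR adjusted p = 0.933), so CV stood apart from both (CV against ENR 4.57 ± 0.120). Against ENR, Prodh, which begins the breakdown of proline, was lower in EN at 3.77 TPM against 23.8 (−2.50 ± 0.121, edgeR adjusted p = 2.86e-11).

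Of 8 transcripts for arginine use, 2 were higher and 5 lower in EN than in CV (median −0.77), and none were higher and 2 lower than in ENR (median 0.08). Ddah2, which breaks down methylated arginines, was at 0.510 TPM in EN and 5.27 in CV (−3.06 ± 0.367, edgeR adjusted p = 1.41e-06). It was at 0.589 TPM in ENR and not called between EN and ENR (−0.11 ± 0.467, edgeR adjusted p = 0.838). Gatm, the first enzyme of creatine synthesis, had 1, 1, 1 and 0 counts in EN, 9, 10, 4 and 10 in ENR and 22, 22, 25 and 27 in CV. Such counts lie at or under 3 in EN, and no fold change is given.

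Of 7 transcripts of carriers of arginine, lysine and cystine, 4 were higher and 1 lower in EN than in CV (median 1.49), with the same numbers against ENR (median 1.73). Slc7a9 and Slc3a1, which form the carrier of the brush border, and Slc7a7 and Slc3a2, which form the one of the basolateral membrane, were all among the higher ones against ENR. Slc7a9 was at 203 TPM in EN, 48.3 in ENR and 30.3 in CV (EN against CV 3.06 ± 0.0764, edgeR adjusted p = 9.23e-15). Slc7a7 was at 206 TPM in EN, 53.8 in ENR and 59.6 in CV (2.11 ± 0.0615, adjusted p = 5.40e-14 by edgeR). Slc3a1 was at 371 TPM in EN and 105 in ENR (1.98 ± 0.0427, edgeR adjusted p = 2.48e-15), and the named Slc3a2 transcript at 94.0, 31.7 and 34.9 TPM in EN, ENR and CV. Slc7a1, the widespread carrier of cationic amino acids, was lower in EN, at 4.06 TPM against 10.1 in ENR (−1.16 ± 0.0695, edgeR adjusted p = 3.87e-10), but was not called on the copy numbers (−0.13, limma adjusted p = 0.652).

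Of 5 transcripts for the control and breakdown of polyamines, 1 was higher and 4 lower in EN than in CV (median −0.95), with the same numbers against ENR (median −0.65). The higher one was Aoc1, diamine oxidase, which oxidises putrescine and histamine. It was 45.6, 39.3, 43.4 and 49.2 TPM in CV, 232, 228, 239 and 258 in ENR, and 979, 892, 958 and 1016 in EN. No libraries overlapped, and Aoc1 was higher in EN than in CV by 4.75 on the log2 scale (SE 0.0639, edgeR adjusted p = 1.43e-17). Paox, which oxidises acetylated polyamines, was lower in EN at 8.78 TPM against 38.0 in ENR (−1.96 ± 0.0740, edgeR adjusted p = 1.37e-12). Of 7 transcripts of methylthioadenosine salvage, which recovers the by-product of polyamine synthesis, 1 was higher and 5 lower in EN than in CV (median −0.47). Mtap, its first enzyme, was at 9.11 TPM in EN and 79.7 in CV (−2.81 ± 0.0568, edgeR adjusted p = 8.37e-16), and Apip, a later one, at 2.71 and 39.9 (−3.52 ± 0.232, adjusted p = 1.06e-09). Of the 3 transcripts of the hypusine pathway, which uses spermidine to modify Eif5a, 2 were lower in EN than in CV and none higher (median −0.41).

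At the promoters, ATAC-seq and histone marks were given by the deposited table as normalized scores per region of the union of peaks. A promoter region overlapped 500 bp on either side of a start site, which 11 regions of 9 genes did. Cps1 had none around its annotated start at chr1:67169600. Scores were compared with limma on log2(score + 1) and called at an adjusted p under 0.05. In ATAC, 2 genes had a higher and 2 a lower promoter region in EN than in CV, where 35.2% of all regions were called, 19.6% higher and 15.6% lower. The shares given here and below are over all regions, at promoters or not. None was computed over promoters alone, so an excess over them cannot be read from these counts of genes. Between EN and ENR 2 genes had a higher and 1 a lower region (background 24.0%, with 11.6% higher and 12.5% lower), and between CV and ENR 1 a higher and 1 a lower one (15.8%, with 5.11% and 10.7%). Without the trend limma called only the Otc region between EN and ENR, and none between CV and ENR, where 2 had an unadjusted p under 0.05. Between EN and CV, 3 genes were higher and 1 lower in H3K27ac, against 7.03% of all regions (5.07% higher, 1.96% lower). In H3K4me3 1 was higher, against 4.90% (2.75% higher). CV held valproic acid, an inhibitor of histone deacetylases. Its effect on H3K27ac cannot be told apart from the other differences between CV and EN. In EN against ENR, 1 gene was higher in H3K27ac, against 1.57% of all regions (1.22% higher). In H3K27me3, limma called none of the 11 regions between EN and CV, against 0.528% of all regions, with 1 region, of Otc, at an unadjusted p under 0.05. Without the trend of the spread on the mean limma called none and had none at that p.

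The Arg2 promoter region, chr12:80231411-80232498, was higher in EN in ATAC, H3K27ac and H3K4me3. Its H3K27ac scores were 6, 6 and 15 in CV, 21, 9 and 10 in ENR, and 47, 57 and 45 in EN (EN against CV 2.45 ± 0.500, limma adjusted p = 0.00153, and against ENR 1.91, adjusted p = 0.0411, the latter not called without the trend, adjusted p = 0.158, or with the replicate block, adjusted p = 0.376). H3K4me3 was 17, 19 and 20 in CV, 33, 26 and 26 in ENR, and 51, 58 and 52 in EN (1.48 ± 0.141, limma adjusted p = 0.00104). In both marks EN lay apart from CV and from ENR. The replicate block left little to estimate the spread of H3K27ac from, so the call lost under it may reflect that. The ATAC scores of EN also lay above the others, by less, at 25, 34, 29 and 32 in CV, 24, 34, 33 and 35 in ENR and 43, 56, 38 and 43 in EN (0.56 ± 0.169, limma adjusted p = 0.0137, and 0.50 against ENR, adjusted p = 0.0373). The ATAC call between EN and CV was lost in limma without CV replicate 1 (0.48, adjusted p = 0.0502) and after quantile normalization (0.42, adjusted p = 0.0628), and that between EN and ENR without the trend (adjusted p = 0.0808).

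Ass1, with the CpG-rich promoter printed above, lost accessibility with its RNA. Its promoter region chr2:31325481-31326417 scored 52, 45, 64 and 55 in CV, 47, 39, 28 and 24 in ENR, and 27, 27, 19 and 18 in EN. EN lay below all of CV and overlapped ENR. The difference between EN and CV was −1.22 ± 0.207 (limma adjusted p = 0.000145) and that between CV and ENR 0.67 (adjusted p = 0.0341, but 0.0870 without the trend). EN against ENR was −0.56, with an adjusted p of 0.0585 in limma and 0.0340 when blocked on the replicate number.

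The Otc region chrX:9829216-9829530, on the CpG-poor promoter, gained accessibility. It scored 7, 7, 10 and 13 in CV, 10, 12, 10 and 12 in ENR, and 18, 20, 24 and 31 in EN, and every EN library lay above the others. EN was higher than CV by 1.25 ± 0.232 (limma adjusted p = 0.000349) and than ENR by 0.99 (adjusted p = 0.00430). The other 2 Otc regions scored low in ATAC and were not called. In H3K27me3, EN did not overlap CV at the first region, with 20, 18 and 22 against 12, 7 and 11. Nor did it at chrX:9829601-9829823, with 24, 18 and 27 against 7, 9 and 9. Neither was called (limma adjusted p = 0.709 and 0.513), and EN overlapped ENR at both.

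At Oat, accessibility and H3K27ac of the promoter region chr7:139767345-139768239 differed in opposite directions. ATAC scored 143, 143, 124 and 160 in CV, 129, 152, 113 and 127 in ENR, and 117, 106, 91 and 87 in EN (EN against CV −0.51 ± 0.121, limma adjusted p = 0.00296). H3K27ac was 37, 29 and 34 in CV, 72, 66 and 59 in ENR, and 80, 94 and 65 in EN (1.22 ± 0.315, limma adjusted p = 0.0130). EN did not overlap CV in either measure. In H3K27ac, ENR also lay above CV, and EN against ENR was not called (0.26 ± 0.315, limma adjusted p = 0.797). The H3K27ac call at Oat was lost in limma without EN replicate 2 (1.21, adjusted p = 0.0606) or EN replicate 3 (1.10, adjusted p = 0.0981), and without the trend (adjusted p = 0.127).

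Of the 3 polyamine genes without an RNA row, Sat1 had more H3K27ac in EN. Its region chrX:151649761-151651357 scored 58, 52 and 32 in CV, 89, 67 and 71 in ENR, and 95, 108 and 99 in EN (1.11 ± 0.295, limma adjusted p = 0.0162). EN lay above both other cultures. The call was lost in limma without CV replicate 5 (0.86, adjusted p = 0.0728) or EN replicate 2, 3 or 4 (1.15, 1.06 and 1.12, adjusted p = 0.0625, 0.101 and 0.0795), and without the trend (adjusted p = 0.172). Srm had less, with H3K27ac scores of 46, 112 and 130 in CV, 92, 71 and 64 in ENR and 63, 29 and 25 in EN at chr4:147965101-147966723 (−1.27 ± 0.367, limma adjusted p = 0.0295), although CV and EN overlapped. Its call was lost in limma without CV replicate 4 or 5 (adjusted p = 0.141 and 0.218), ENR replicate 2 or 4 (adjusted p = 0.0568 and 0.0601) or EN replicate 3 or 4 (adjusted p = 0.199 and 0.217), and without the trend (adjusted p = 0.211).

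The Odc1 promoter region chr12:17551070-17553103 was open in every library, at 202, 194, 175 and 185 in CV, 138, 155, 167 and 163 in ENR, and 179, 138, 174 and 166 in EN, and was called between EN and CV in none of the 4 measures, nor were those of Asl and Sms. In H3K27ac, EN still lay below both other cultures at Odc1 and Sms, and above CV at Asl. Odc1 scored 138, 120 and 116 in CV, 122, 105 and 148 in ENR, and 85, 83 and 70 in EN (EN against CV −0.65 ± 0.237, limma adjusted p = 0.0983). Sms scored 58, 51 and 54 in CV, 39, 59 and 78 in ENR, and 16, 29 and 31 in EN (−1.12 ± 0.372, limma adjusted p = 0.0617). Asl differed by 1.18 ± 0.464 (limma adjusted p = 0.128). In Sms, CV was below ENR in ATAC by 0.37 on the log2 scale (−0.37, limma adjusted p = 0.0483), which was not called without the trend (adjusted p = 0.15).

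**Figure D3:**
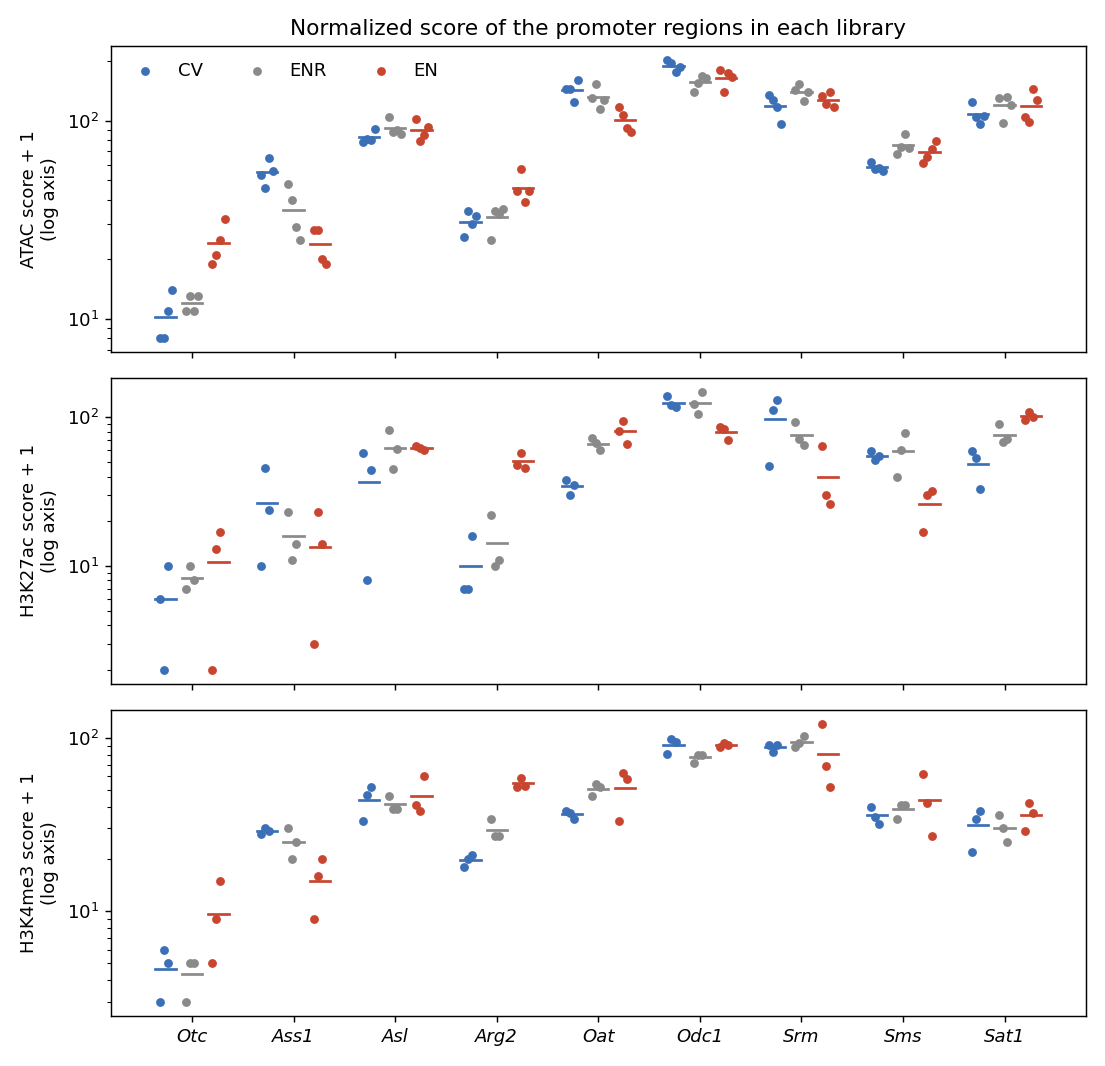
Normalized score plus 1 of the promoter regions of 9 genes in each library of CV, ENR and EN, on a log axis, for ATAC, H3K27ac and H3K4me3 from top to bottom, with the culture mean as a bar. For Otc the region called in ATAC is drawn. Arg2 scored 6 to 15 in CV and 45 to 57 in EN in H3K27ac, and Ass1 scored 45 to 64 and 18 to 27 in ATAC.

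Farther from the start sites, 65 regions lay within a gene or up to 20 kb from it. In ATAC, 6 were higher and 15 lower in EN than in CV, against a background of 35.2% called (19.6% higher, 15.6% lower). Against ENR, 6 were higher and 7 lower in EN (background 24.0%), and between CV and ENR 1 was higher and 3 lower (15.8%). Blocking on the replicate number, limma called 7 higher and 14 lower between EN and CV, 9 and 9 between EN and ENR, and 4 and 5 between CV and ENR. In H3K27ac, limma called none of them between EN and CV (background 7.03%), with 7 at an unadjusted p under 0.05, and without the trend none and 8.

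Of the 5 distal Arg2 regions, 4 were higher in ATAC in EN than in CV. The largest difference was at chr12:80242475-80242682, in an intron 10814 bp from the start, with scores of 1, 1, 0 and 2 in CV, 4, 3, 2 and 4 in ENR, and 13, 18, 11 and 16 in EN. EN lay far above the others, by 3.04 ± 0.341 against CV (limma adjusted p = 2.05e-06) and 1.87 against ENR (adjusted p = 0.000582). The same interval scored 0 for H3K4me3 in every CV and ENR library and 1, 3 and 7 in EN (2.00, limma adjusted p = 0.0416). Another intronic region, chr12:80243807-80244068, was higher by 1.57 ± 0.340 (limma adjusted p = 0.00140) and one that overlaps a coding exon, chr12:80250635-80250958, by 1.30 ± 0.248 (adjusted p = 0.000472).

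The other distal region shown lies 6621 bp before the Odc1 start at chr12:17544915-17545201 and was chosen after its values were seen. It scored 6, 8, 5 and 7 in CV, 17, 25, 20 and 17 in ENR, and 28, 26, 30 and 38 in EN. The cultures did not overlap, and the differences were 2.07 ± 0.205 between EN and CV (limma adjusted p = 5.02e-07), 0.60 between EN and ENR (adjusted p = 0.0384) and −1.47 between CV and ENR (adjusted p = 9.82e-05). Both regions are printed from mm9 on the plus strand, since their accessibility differed most among the distal regions. Capitals mark a GATA site (AGATAA) and a TCF site (ATCAAAG, on the minus strand) in the Odc1 region, and CCAAT on both strands, overlapping, in the Arg2 region.
Arg2 intron: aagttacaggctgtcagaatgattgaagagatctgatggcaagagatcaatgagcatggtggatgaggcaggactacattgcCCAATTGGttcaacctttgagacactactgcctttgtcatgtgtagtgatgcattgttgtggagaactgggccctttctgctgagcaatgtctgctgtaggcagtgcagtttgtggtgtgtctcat
Odc1 upstream: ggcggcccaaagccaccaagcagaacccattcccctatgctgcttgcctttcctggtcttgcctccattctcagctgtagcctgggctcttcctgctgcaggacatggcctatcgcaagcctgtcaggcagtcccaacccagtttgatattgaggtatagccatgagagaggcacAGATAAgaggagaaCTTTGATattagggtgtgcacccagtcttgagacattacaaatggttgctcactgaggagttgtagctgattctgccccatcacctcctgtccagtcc

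AGATAA occurred in 18.4% and ATCAAAG in 5.37% of windows of 287 bases centred on all regions with sequence, and CCAAT in 23.6% of windows of 208 bases. Neither HNF4 site was in these regions, where they occurred in 2.24% and 2.07% of the windows of 287 bases and 1.97% and 1.83% of those of 208.

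Cps1 had lower accessibility at 5 of its 12 distal regions in EN than in CV, of which 1, at chr1:67160063-67160170, was not called when blocked on the replicate number (limma adjusted p = 0.0486 and 0.0518). At chr1:67240319-67240417, in an intron, ATAC scored 4, 3, 4 and 4 in CV, 2, 1, 1 and 2 in ENR, and 0, 1, 0 and 1 in EN (−1.74 ± 0.352, limma adjusted p = 0.000770). A better covered one, chr1:67164429-67164709, 5031 bp before the start, scored 26, 29, 32 and 25 in CV, 12, 11, 14 and 11 in ENR, and 21, 8, 11 and 16 in EN (EN against CV −1.03 ± 0.238, limma adjusted p = 0.00240, and CV against ENR 1.16 ± 0.238, adjusted p = 0.00274). Upstream of Srm, the region chr4:147963818-147964063 scored 32, 32, 34 and 36 in CV, 29, 30, 30 and 27 in ENR, and 10, 28, 12 and 14 in EN (EN against CV −1.13 ± 0.229, limma adjusted p = 0.000808), and 1 EN library lay near the others. These 2 regions were chosen after their values were seen.

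**Figure D4:**
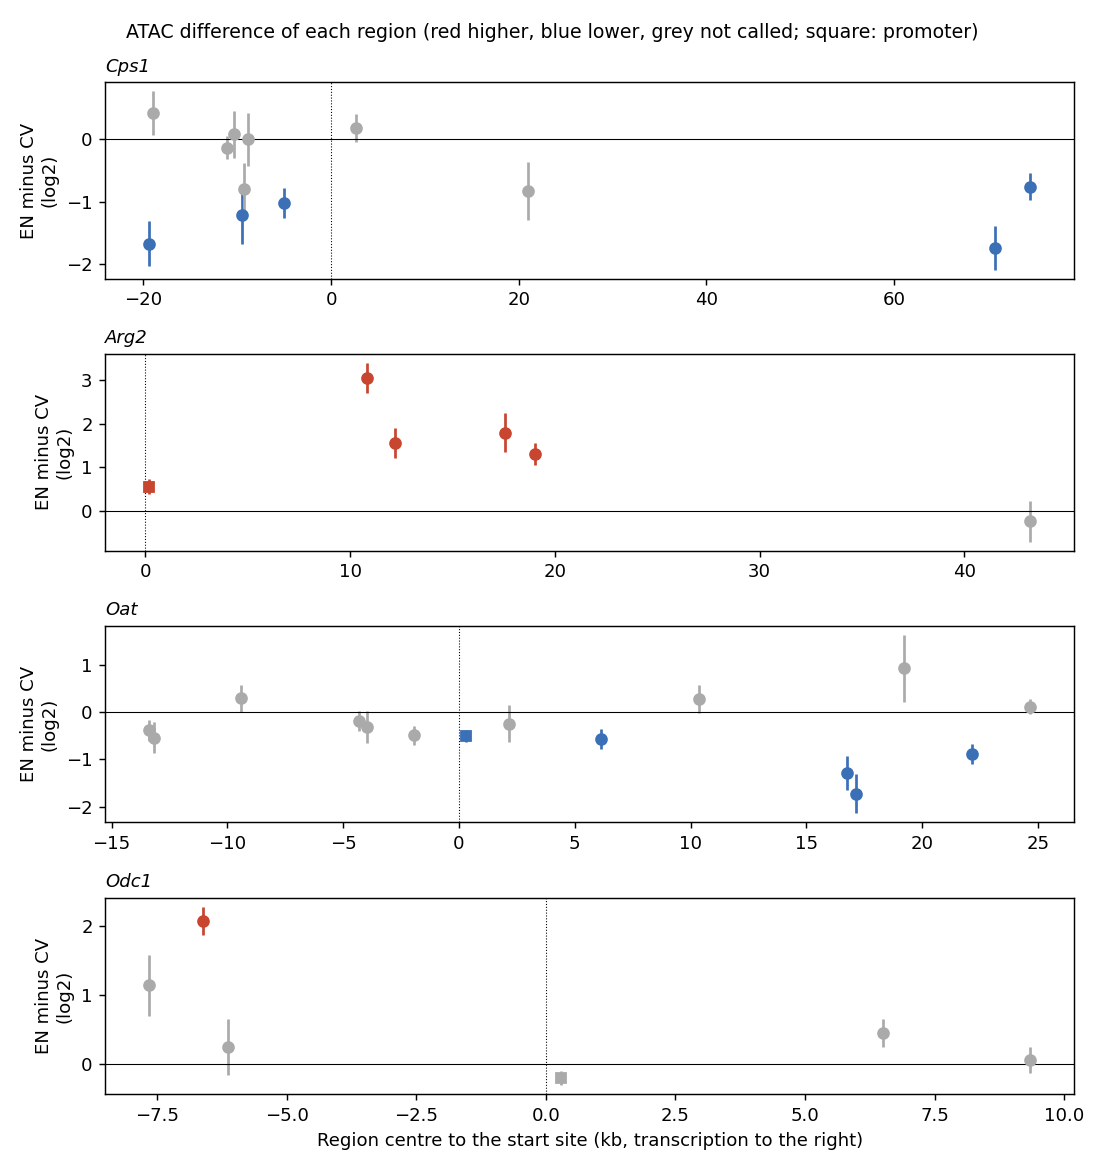
Log2 ATAC difference between EN and CV, with its standard error, of each region of Cps1, Arg2, Oat and Odc1 against the distance of its centre from the start site in kb. Red regions were called higher, blue lower and grey not called, squares are promoter regions, and the intronic Arg2 region at 3.04 and the upstream Odc1 region at 2.07 stand highest.

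Hnf4g, a nuclear receptor of the intestinal epithelium, was measured by ChIPmentation in 1 library per culture, so no test was made. The libraries held 84340, 352600 and 1816497 reads in regions in CV, ENR and EN, and 25.8%, 57.6% and 82.6% of all regions had a read. Over all 80 regions of the 10 genes there were 51, 164 and 1228 reads, or 605 (95% Poisson interval 450 to 795), 465 (397 to 542) and 676 (639 to 715) RPM, the reads per 1000000 reads in regions. The intervals cover counting error only. RPM is a share of the reads in regions of 1 library, and background reads are not told apart from bound Hnf4g. Similar RPM in 2 cultures therefore do not mean that similar amounts of Hnf4g were bound. At the 7 Arg2 regions 6, 25 and 236 reads gave 71.1 (26.1 to 155), 70.9 (45.9 to 105) and 130 (114 to 148) RPM. The interval of EN lay above that of ENR and overlapped that of CV, which is wide. At the Odc1 promoter there were 2, 4 and 120 reads, so that EN had 66.1 RPM (54.8 to 79.0) and ENR 11.3 (3.09 to 29.0). Summed over all regions of a gene, the interval of EN lay above that of ENR for 3 of the 10 genes, Arg2, Asl and Odc1, and overlapped it for the other 7. The same count was not made over other genes, so it cannot be said whether 3 of 10 is many or few. At the Ass1 region chr2:31361281-31361511, chosen after its values were seen, ENR was higher, with 11 reads or 31.2 RPM (15.6 to 55.8) against 6 reads or 3.30 RPM (1.21 to 7.19) in EN.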

How the data were processed

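The genes and the pathway and marker lists were chosen with earlier results of these data known. For RNA, the authors deposited expected counts from kallisto, beside TPM and mRNA copy numbers scaled to spike-ins, for an index of transcripts whose proteins had been quantified. Expected counts were rounded, spike-ins left out, and transcripts above 0 in at least 4 libraries compared in 1 fit of 12 libraries with edgeR 4.0.16 in R 4.3.3 (TMM normalization, Benjamini-Hochberg adjustment, common dispersion 0.00475). TPM served for levels and as an alternative in limma on log2(TPM + 1). A share of 3 counts was taken as the floor.

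ATAC-seq and histone mark reads were aligned to mm9 by the authors, who called peaks with MACS2 and deposited normalized scores, rounded to whole numbers, for 94469 regions. Summed scores per library were 1752385 to 2109261 for ATAC, 1345873 to 1760511 for H3K27ac, 817265 to 1100967 for H3K4me3 and 1010511 to 1327017 for H3K27me3. Regions above 0 in at least 3 libraries were compared with limma 3.58.1 on log2(score + 1), with a trend. Hnf4g values are deposited as unnormalized counts per region, given here with exact Poisson intervals. Start sites were those of GENCODE for mm9. Whether region starts count from 0 or 1 is not given in the sources used here.

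Same-numbered ATAC libraries deviated together from their culture means (r 0.141 to 0.633 over 12 pairs), so the number was taken to pair them in an alternative fit with a replicate block. The main ATAC fit had no block, and its values are the ones printed unless the block is named. RNA libraries did not (r -0.080 to 0.111). The genes named are the 10 enzymes, the 6 other pathway transcripts with the largest called difference in each direction for EN against CV and against ENR without overlap, the 2 transcripts most like each enzyme (mean CPM of at least 5), and the regions of the enzymes. Some genes that this rule names are not reported here. Alternatives changed the scaling, filter, pseudocount, threshold, block, trend and tool (DESeq2 1.42.0), or left out each library. The scripts were tested on simulated data. Further histone libraries, the Hnf4g knockout and proteomics were not analysed here.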

Additional observations from a re-analysis of the deposited data

Results flagged for a closer look

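In 54 groups of 4 libraries, 1 value was tested for standing apart from the other 3, and 5 groups held such a value. Chance gives about 1 in 20 for continuous values. Asl was 64.7 CPM in CV replicate 2, below 72.0 to 72.5 in the other CV libraries. Arg2 was 29.0 CPM in CV replicate 3, above 24.1 to 24.5 in the others. Srm was 0.864 CPM in EN replicate 4, where the others had 1.5 to 1.6. The ATAC score of the Otc region chrX:9829601-9829823 was 1 in CV replicate 3 and 0 in the others, and that of chrX:9829855-9830396 was 2 in ENR replicate 4 and 1 in the others. Such small whole numbers, with the other 3 equal, are flagged by any difference, so the rate of chance does not hold for them.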

How the results depend on the processing

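The calls on the enzymes in RNA held under the filter, the replicate block, DESeq2 and each library left out (7 of 7 called for EN against CV and for CV against ENR, 6 for EN against ENR), and the counts of other pathway transcripts ran from 40 to 43, from 27 to 30 and from 30 to 32. Scaling mattered more, and the cause was not tested. Of all calls, 46.0%, 48.9% and 50.4% were higher for EN against CV, EN against ENR and CV against ENR, against 25.6%, 20.4% and 39.4% with spike-in scaling, 79.0%, 87.7% and 75.2% on copy numbers and 31.3%, 39.8% and 66.2% on log2(TPM + 1). Log2 differences that turned were Asl for EN against CV on copy numbers (0.52, and 0.51 with a pseudocount of 1, added after seeing the data), Ass1 for EN against ENR on copy numbers (0.36 and 0.26), Asl for EN against ENR with spike-ins (-0.50, from 0.01, neither called), and Oat for EN against ENR with spike-ins (-0.37) and on TPM (-0.012 with either pseudocount). On copy numbers 25 of the other pathway transcripts, rather than 41, were called for EN against CV; for CV against ENR 3 (4 with the added pseudocount) rather than 7 enzymes and 14 (17) rather than 32 others were called, and 19 others with spike-ins. With the replicate block RNA calls over all transcripts were 7064, 6705 and 5457. Between EN and CV, the 4 genes called at H3K27ac promoters became 1 at an adjusted p under 0.01, 1 without the trend, 0 with the replicate block (5 genes at an unadjusted p under 0.05) and 1 to 5 with a library left out (1 without EN replicate 3, and 2 without CV replicate 5, EN replicate 2 or EN replicate 4); Arg2 was not called under the block (2.90, limma adjusted p = 0.157). H3K4me3 gave 1 to 2 genes (2 without EN replicate 1) and ATAC 3 to 4 with a library left out. The replicate number did not pair the libraries of the 3 histone marks. For H3K27ac the block also left little to estimate the spread from, so calls lost under it may reflect that. Counts of 12 or fewer limit Srm in EN, and scores of under 10 limit the low distal regions.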
